A study of Mus musculus with 6 samples.

Results

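The genes described here are 10 heat shock proteins and co-chaperones chosen by name, and they make up 10 of the 24732 gene symbols with an FPKM value (fragments per kilobase of transcript, scaled to the mapped fragments of the library). They are the stress-inducible HSP70 genes Hspa1a and Hspa1b, the constitutive HSP70 gene Hspa8, the HSP110 gene Hsph1, the J-domain gene Dnajb1, the cytosolic HSP90 genes Hsp90aa1 and Hsp90ab1, the mitochondrial chaperonin pair Hspd1 and Hspe1, and the small heat shock protein gene Hspb1. RNA-seq was done on cells labelled as mouse FGSCs (female germline stem cells, here of strain C57BL/6 by the labels and kept in culture for more than 20 passages), with 3 control samples and 3 shCTCF samples. The shCTCF cells carried a lentiviral short hairpin RNA against CTCF, a zinc finger protein that binds DNA and shapes chromatin loops, and were selected with puromycin, while what the control cells received is not given in the sources used here. Both groups grew on inactivated STO fibroblasts with LIF, EGF, bFGF and GDNF in the medium, and according to the study's methods the line came from newborn ovaries of Ddx4-Cre;mT/mG mice. The labels do not say whether the 3 samples of a group were separate cultures, so p-values measure the spread between these samples, which may be technical.

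Heat shock proteins are molecular chaperones. HSP70 proteins hold unfolded chains in a cycle driven by ATP, J-domain proteins bring them clients and start ATP hydrolysis, and HSP110 proteins release the nucleotide so that the client can leave. HSP90 acts later, on nearly mature clients such as kinases and steroid receptors, and the HSPD1 and HSPE1 rings fold proteins inside mitochondria. On heat or other proteotoxic stress the transcription factor HSF1 binds heat shock elements, which are alternating GAA and TTC units, and raises the transcription of many of these genes.

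The targeted gene was read first. Ctcf had 58.2, 56.1 and 53.5 FPKM in the control samples and 0.740, 0.550 and 0.629 FPKM in the shCTCF samples. In the deposited counts it was at 0 in every sample, so the knockdown could be read in FPKM only. Assigned counts ranged from 1686052 in control replicate 2 to 7044272 in control replicate 3, and between 9639 and 9937 genes per sample reached 1 FPKM. The labelled cell type was checked against 8 germline markers, of which 5 (Ddx4, Pou5f1, Dppa3, Gfra1 and Dazl) were below 1 FPKM in every sample and Dppa3 and Gfra1 were at 0 in every sample. Most of this list thus did not bear out the label. The summed level of the list was 19.5 to 19.8 FPKM in control and 24.9 to 26.2 FPKM in shCTCF, but its genes went both ways. The mean of Ifitm3 was 0.737 FPKM in control and 10.8 in shCTCF, whereas Etv5 was at 17.3 and 14.3 FPKM and Zbtb16 at 1.57 and 0.288 FPKM. Of 14 fibroblast feeder markers, 7 reached a mean of 1 FPKM, and the list summed to 1003.8 to 1059.3 FPKM in control and 6375.4 to 6551.4 FPKM in shCTCF and was nearly all Vim in both groups. Its genes went both ways, with 4 higher (Vim among them) and 3 lower past the test. Col6a1 was at 0.144 FPKM in control and 15.3 in shCTCF, Fn1 at 2.22 and 0.0266 FPKM, Pdgfrb at 6.09 and 2.16 FPKM, Dcn at 2.71 and 0 FPKM, and Col3a1 and Lum were at 0 in every sample. Of 14 myeloid and mast cell markers, 7 reached a mean of 1 FPKM, and the list summed to 1199.4 to 1233.5 FPKM in control and 1173.2 to 1234.6 FPKM in shCTCF. This sum hides opposite moves, since the mean of Ctsg was 150.7 FPKM in control and 2.22 in shCTCF and that of Cpa3 280.7 and 88.0 FPKM, while Cd68 was at 44.7 and 137.1 FPKM and Kit at 574.9 and 786.5 FPKM. Ptprc was at 103.6 FPKM in control and 114.8 in shCTCF, Spi1 at 63.6 and 66.1 FPKM, and Mcpt8 at 2.45 and 3.93 FPKM. These differences did not pass the test. Fcer1a and Elane were at 0 in every sample. Of 8 granulosa cell markers, only Wt1 reached a mean of 1 FPKM, and the list summed to 0.140 to 0.491 FPKM in control and 2.27 to 3.64 FPKM in shCTCF. The part of these cell type differences in the results below was not tested, and in bulk RNA fewer cells of a type and less RNA per cell cannot be told apart.

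The sequence upstream of the start site is shown for the members whose RefSeq promoter window holds a GAA unit joined to a TTC unit. HSF1 is known to bind heat shock elements, which are runs of these units. RefSeq windows of build GRCm38.p6 were given for 7 of the 10 members, and their 250 upstream bases were searched on both strands for GAANNTTC and TTCNNGAA, the 8-base forms that join 1 GAA and 1 TTC unit, which can overlap where units follow each other. GAANNTTC was found in 6.69% of 32851 such windows of all genes, TTCNNGAA in 7.17%, either form in 12.8%, and 3 alternating units in a row in 0.466%. The stretches below are 70 bases long, read 5′ to 3′ on the strand of the gene, with the matching bases in capitals.
Hspa1a, chr17:34972212-34972281, minus strand: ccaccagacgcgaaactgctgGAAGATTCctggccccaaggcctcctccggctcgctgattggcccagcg
Hspa1b, chr17:34959294-34959363, minus strand: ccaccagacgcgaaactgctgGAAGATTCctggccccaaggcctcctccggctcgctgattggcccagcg
Hsph1, chr5:149636347-149636416, minus strand: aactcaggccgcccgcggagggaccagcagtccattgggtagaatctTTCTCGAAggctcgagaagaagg
Hspe1, chr1:55088038-55088107, plus strand: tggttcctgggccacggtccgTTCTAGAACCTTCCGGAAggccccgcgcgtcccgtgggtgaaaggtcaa
Hspd1, chr1:55088038-55088107, minus strand: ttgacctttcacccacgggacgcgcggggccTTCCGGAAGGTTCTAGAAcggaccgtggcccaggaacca
Hspb1, chr5:135887779-135887848, plus strand: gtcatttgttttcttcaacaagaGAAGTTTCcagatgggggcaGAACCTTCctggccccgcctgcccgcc

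The printed stretches of Hspa1a and Hspa1b were the same in all 70 bases, and over the 250 upstream bases 247 were identical. Hspe1 and Hspd1 lie head to head, so their stretches are the 2 strands of the same 70 bases and share 1 run of alternating units. That run lay 89 to 72 bases before the start of Hspe1 and 144 to 127 bases before the start of Hspd1, whose second, alternative window held no match. Hsph1 had 1 match in both of its windows, 33 to 26 bases before the start in the printed one, and Hspb1 had 2 separate matches. The 2 windows of Dnajb1 held neither form, which says only that these letters are not in those windows. Of the members searched, only Hspe1 and Hspd1 had 3 alternating units in a row. Members with a match were found among those with higher FPKM in shCTCF cells (Hspa1a, Hspa1b, Hsph1), those with lower FPKM (Hspe1, Hspd1) and the member below 1 FPKM (Hspb1).

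Hspa1a and Hspa1b needed a check before their values were read, since the genes are near copies. In build mm9, which the deposited files use, both have 1 exon on the minus strand of chromosome 17, Hspa1a at 35106304 to 35109101 and Hspa1b at 35093374 to 35096183. Their coding sequences matched in 1918 of 1926 aligned bases (99.6%), whereas the transcript after the coding sequence matched in 351 of 578 aligned bases (60.7%). Among stretches of 100 bases within the coding sequence of Hspa1a, 68.1% also occurred in Hspa1b, and after the coding sequence 0 of 542 did. At this length the tail separates the genes and most of the coding sequence does not. The study sequenced longer reads in pairs, for which these shares and those given below for other members were not computed. How the aligner placed fragments that match both genes is not given in the sources used here. Both primers that the study designed for Hspa1b by qRT-PCR, gagatcgactctctgttcgagg and gcccgttgaagaagtcctg, matched the coding sequences of Hspa1a and Hspa1b with 0 mismatches, at the same transcript positions.

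**Figure D1:**
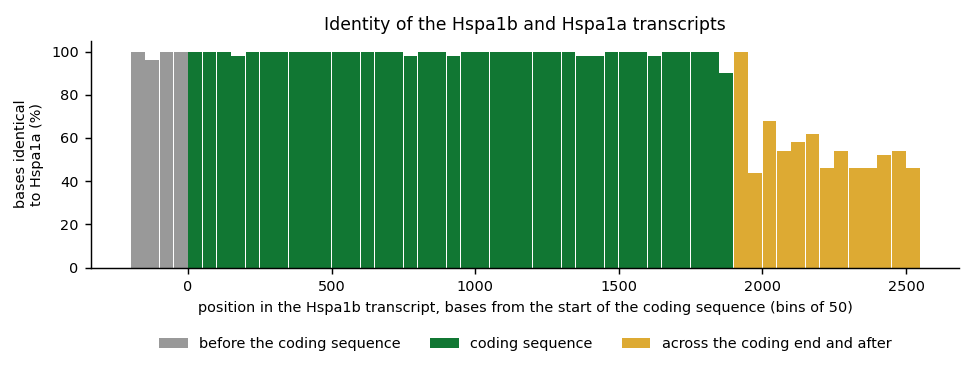
Percent of bases in the Hspa1b transcript that are identical to Hspa1a (vertical axis) in bins of 50 bases counted from the start of the coding sequence (horizontal axis), coloured by region. Identity was 90% or more in every coding bin and between 44 and 68% in every bin after the 1 that spans the coding end.

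The HSP70 and HSP110 genes among the members rose in shCTCF cells, and the inducible pair rose most. Hspa1a was at 26.9, 32.4 and 24.1 FPKM in the control samples and at 145.3, 192.4 and 237.3 FPKM in the shCTCF samples. Every shCTCF sample was far above every control sample. The means were 27.8 ± 4.21 and 191.7 ± 46.0 FPKM (SD, n = 3), a ratio of 6.89, and with a pseudocount of 1 added to each FPKM (this shrinks changes at low levels) the log2 fold change was 2.72 (SE 0.18, limma, Benjamini-Hochberg adjusted p = 5.8e-06). Hspa1b was at 37.2, 37.7 and 38.2 FPKM in control and at 178.2, 224.3 and 272.3 FPKM in shCTCF, 37.7 ± 0.474 against 225.0 ± 47.1 FPKM. Its control samples were almost level, and its ratio was 5.97 with a log2 fold change of 2.53 (SE 0.14, limma adjusted p = 2.2e-06). In the deposited fragment counts, Hspa1a had 854, 266 and 843 counts in control and 4406, 5244 and 7937 in shCTCF, and the log2 fold changes were 3.03 (SE 0.15) for Hspa1a and 2.80 (SE 0.13) for Hspa1b (edgeR adjusted p = 4.4e-09 and 2.0e-09).

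Because the HSP70 copies share sequence, their sum was also read. Hspa1a plus Hspa1b came to 64.2, 70.1 and 62.3 FPKM in control and 323.5, 416.7 and 509.7 FPKM in shCTCF, 6.36 times as high by the means. Hspa1b contributed 58.0, 53.8 and 61.3% of the sum in control and 55.1, 53.8 and 53.4% in shCTCF. These shares overlapped between groups (exact permutation test, two-sided, p = 0.3, where the smallest possible with 3 against 3 is 0.1).

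Hspa8, the constitutive HSP70 (chromosome 9, 40609359 to 40613285, plus strand, 9 exons), started from a much higher level. It was at 412.7, 433.0 and 430.5 FPKM in control and at 975.0, 1045 and 1076 FPKM in shCTCF, 425.4 ± 11.1 against 1032 ± 51.8 FPKM. The groups were far apart, with a ratio of 2.43 and a log2 fold change of 1.28 (SE 0.06, limma adjusted p = 9.1e-07). In FPKM, which is per length and so allows levels to be compared between genes, Hspa8 was 6.51 ± 0.372 times as high as Hspa1a plus Hspa1b in control and 2.54 ± 0.452 times in shCTCF. The added amount was nevertheless larger for Hspa8, and the sum of the 3 HSP70 members went from 490.9 ± 13.2 to 1449 ± 144 FPKM. The count table could not be used for Hspa8, since its 2 RefSeq transcripts overlap, fragments on both were not assigned, and it held at most 7 counts in a sample. In mm9, 77.2% of 100-base stretches of Hspa8 exons also occurred elsewhere in the genome, so its FPKM can depend on how repeated matches were treated. The places of these stretches lay on 7 chromosomes, its own included.

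Hsph1 (chromosome 5, 150419420 to 150438890, minus strand, 18 exons) encodes HSP110, a nucleotide exchange factor of HSP70. It was at 94.3, 96.1 and 91.3 FPKM in control and at 228.9, 306.7 and 354.0 FPKM in shCTCF, 93.9 ± 2.40 against 296.5 ± 63.2 FPKM. No control sample came near a shCTCF sample, and the ratio was 3.16 (log2 fold change 1.63, SE 0.14, limma adjusted p = 2.7e-05). The counts gave a log2 fold change of 2.01 (SE 0.21, edgeR adjusted p = 3.5e-06) but rested on 15 to 51 counts in control and 116 to 190 in shCTCF, because only 3.80% of the exon bases of its main transcript belong to that transcript alone. None of its 100-base exon stretches occurred elsewhere in mm9.

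Dnajb1 encodes a J-domain protein that is the classical inducible partner of cytosolic HSP70. It lies on the plus strand of chromosome 8 at 86132074 to 86136552 with 3 exons. Its level was 46.7, 58.4 and 51.1 FPKM in control and 65.6, 77.6 and 86.9 FPKM in shCTCF, 52.0 ± 5.92 against 76.7 ± 10.7 FPKM. The groups did not overlap, and control replicate 2 and shCTCF replicate 1 were the samples closest to each other. The ratio was 1.47 and the log2 fold change 0.55 (SE 0.12, limma adjusted p = 0.00406), the smallest of the 5 increases.

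The counts of Dnajb1 gave a log2 fold change of 0.33 (SE 0.13, edgeR adjusted p = 0.0391), and this call was lost with scaling by library size only (0.17, adjusted p = 0.288) and without control replicate 1 (0.23, adjusted p = 0.198), control replicate 3 (0.33, adjusted p = 0.106), shCTCF replicate 2 (0.33, adjusted p = 0.0957) or shCTCF replicate 3 (0.27, adjusted p = 0.154). Its 2 RefSeq transcripts moved apart when counted alone, a split added after the data were seen. The transcript with the upstream start had 206, 75 and 264 counts in control and 241, 247 and 336 in shCTCF (log2 fold change 0.49, SE 0.13, edgeR adjusted p = 0.00619). The transcript that starts downstream had 40, 14 and 32 counts in control and 7, 11 and 19 in shCTCF, and its log2 fold change was -1.33 (SE 0.36, edgeR adjusted p = 0.00541). These counts cover only the 12.2 and 7.45% of exon bases that each transcript does not share. In FPKM the downstream transcript was at 0 in every sample, so all Dnajb1 FPKM lay on the other transcript and the split rests on counts only.

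**Figure D2:**
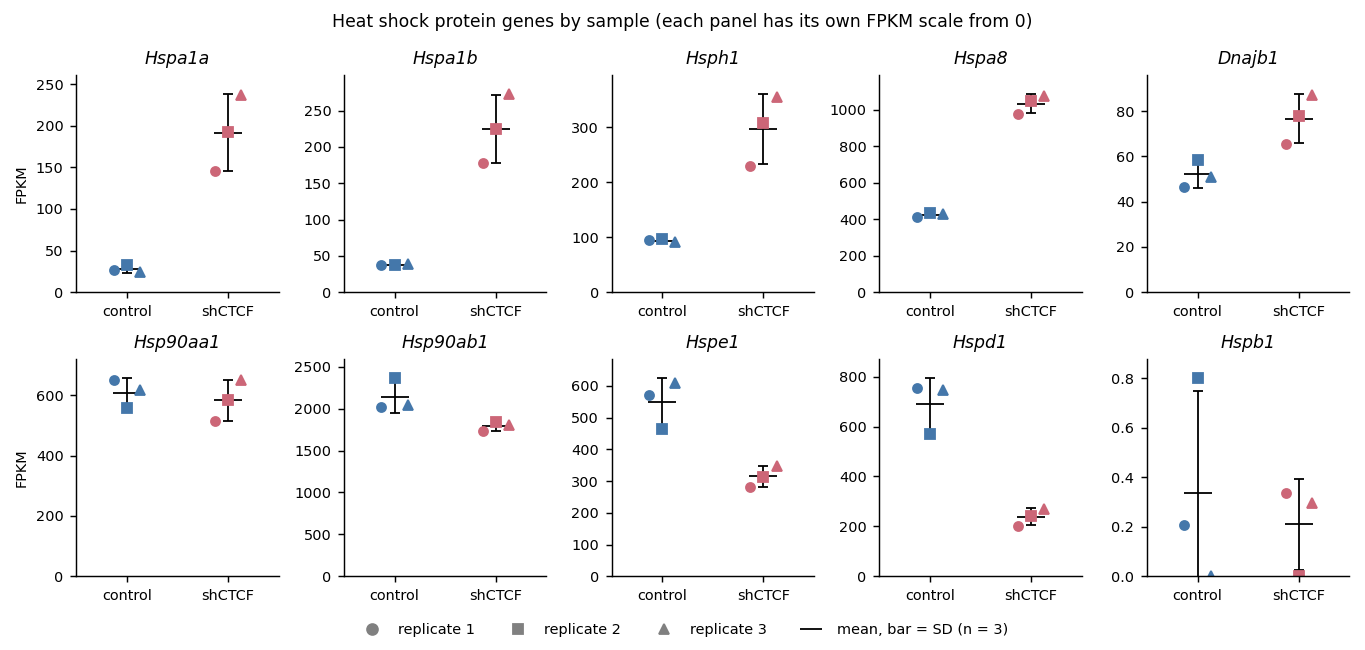
FPKM (vertical axis, from 0, with a scale of its own in each panel) of the 10 genes in each control and shCTCF sample, with replicates as symbols, the mean as a line and the SD as a bar (n = 3). Hspa1a, Hspa1b, Hsph1, Hspa8 and Dnajb1 sit higher in every shCTCF sample, Hspe1, Hspd1 and Hsp90ab1 sit lower, Hsp90aa1 overlaps, and Hspb1 stays under 1 FPKM.

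The mitochondrial chaperonin pair moved the other way. Hspd1, which encodes the large HSP60 ring subunit (chromosome 1, 55134678 to 55144776, minus strand, 12 exons), was at 754.2, 571.2 and 744.7 FPKM in control and at 203.0, 240.6 and 271.4 FPKM in shCTCF. The lowest control sample still lay far above the highest shCTCF sample. Its means were 690.0 ± 103 and 238.3 ± 34.3 FPKM, so that control was 2.90 times as high (log2 fold change -1.53, SE 0.14, limma adjusted p = 2.9e-05). Hspe1, which encodes the HSP10 lid of that ring (chromosome 1, 55144992 to 55148161, plus strand, 4 exons), was at 571.8, 464.9 and 609.7 FPKM in control and at 282.0, 314.3 and 347.3 FPKM in shCTCF. It also did not overlap between groups, at 548.8 ± 75.1 against 314.5 ± 32.6 FPKM, but control was only 1.74 times as high (log2 fold change -0.80, SE 0.12, limma adjusted p = 4.3e-04). The counts gave -0.55 for Hspe1 (SE 0.11, edgeR adjusted p = 8.0e-04), and Hspd1 had at most 11 counts in a sample because its transcripts overlap.

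Hspd1 and Hspe1 start 215 bases apart and point away from each other, and together they make 1 complex. Their ratio in FPKM was 1.32, 1.23 and 1.22 in control and 0.720, 0.765 and 0.782 in shCTCF. Hspd1 therefore had the higher level of the pair in every control sample and the lower level in every shCTCF sample. The mean ratio was 1.26 ± 0.0544 in control and 0.756 ± 0.0321 in shCTCF (exact permutation test, two-sided, p = 0.1, the smallest that 3 against 3 allows). A second RefSeq transcript of Hspd1 starts inside Hspe1 and overlaps it by 96 bases on the opposite strand, and 24.5% of 100-base stretches of Hspd1 exons occur elsewhere in mm9 against 0.787% for Hspe1.

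**Figure D3:**
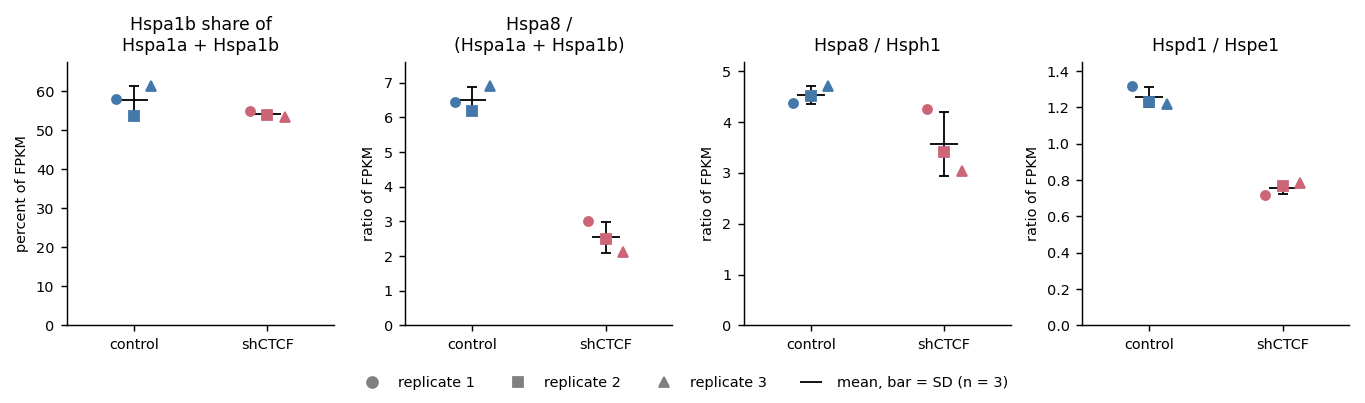
Share of Hspa1b in the Hspa1a and Hspa1b sum (percent of FPKM) and 3 ratios of FPKM (vertical axes, from 0) in each control and shCTCF sample, with the mean as a line and the SD as a bar (n = 3). The Hspa1b share overlaps between groups, while Hspa8 to the inducible pair fell from 6.51 to 2.54 and Hspd1 to Hspe1 from 1.26 to 0.756.

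The cytosolic HSP90 genes changed least of the members tested. Hsp90aa1, the more inducible form (chromosome 12, 111929246 to 111934605, minus strand, 11 exons), was at 651.0, 556.4 and 617.5 FPKM in control and at 514.4, 585.7 and 651.6 FPKM in shCTCF. The samples of the groups were interleaved, and the log2 fold change was -0.06 (SE 0.10, limma adjusted p = 0.586), with a 95% interval of -0.29 to 0.17 that corresponds to 0.817 to 1.12 times the control level. Its direction turned to 0.12 when samples were scaled to the same median and to 0.03 without shCTCF replicate 1, and in the counts it was 0.12 (SE 0.08, edgeR adjusted p = 0.221). Of the 100-base stretches of its exons, 70.5% occur elsewhere in mm9.

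Hsp90ab1, the constitutive form (chromosome 17, 45704727 to 45710210, minus strand, 11 exons), had the highest FPKM of the 10 genes. It was at 2020, 2362 and 2038 FPKM in control and at 1729, 1843 and 1810 FPKM in shCTCF, 2140 ± 192 against 1794 ± 58.8 FPKM. Every shCTCF sample was lower than every control sample, and the log2 fold change was -0.25 (SE 0.07, limma adjusted p = 0.0146). This call was lost with scaling to the same median (-0.07, adjusted p = 0.460), with no filter on low values (-0.25, adjusted p = 0.0635) and without shCTCF replicate 1 (-0.22, adjusted p = 0.0628), and the counts gave -0.05 (SE 0.06, edgeR adjusted p = 0.440). No 100-base stretch of its exons occurs elsewhere in mm9.

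Hspb1, the small heat shock protein HSP27 (chromosome 5, 136363789 to 136365433, plus strand, 3 exons), was nearly undetected. It had 0.206, 0.800 and 0 FPKM in control and 0.336, 0 and 0.296 FPKM in shCTCF, with 2, 2 and 5 counts against 3, 0 and 5. It fell under the filters of both tables and was not tested.

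Of the 10 members, 9 passed the filter at a mean of 1 FPKM, of which 5 rose, 3 fell and 1 (Hsp90aa1) did not pass the test. In the same test 73.0% of 9976 genes passed, 28.8% higher and 44.2% lower, so the number of members past the test is not read as a result about them. The groups did not overlap for 8 of 9 members and for 76.6% of all genes. In the counts 7 members could be tested, of which 4 rose, 1 (Hspe1) fell and 2 did not pass, against 69.1% of 7341 genes, 34.8% higher and 34.3% lower. With scaling by library size only the members split into 3 higher and 2 lower in the counts.

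The median log2 fold change over all genes was -0.17 in FPKM and -0.02 in counts, and relative to the FPKM median the changes were 2.90 for Hspa1a, 2.70 for Hspa1b, 1.80 for Hsph1, 1.45 for Hspa8, 0.72 for Dnajb1, 0.11 for Hsp90aa1, -0.08 for Hsp90ab1, -0.62 for Hspe1 and -1.36 for Hspd1. Counted from the largest increase of 9976 genes, Hspa1a stood at place 187, Hspa1b at 217, Hsph1 at 552, Hspa8 at 829 and Dnajb1 at 2073, and Hspd1 stood at 9462. By level, Hspa1b moved from place 2215 in control to 284 in shCTCF and Hspd1 from 101 to 264, while Hsp90ab1 went from 11 to 18. Summed over the 10 genes, which went both ways, the share of all FPKM was 1.05, 1.01 and 1.03% in the control samples and 0.952, 1.06 and 1.13% in the shCTCF samples, so the groups overlapped.

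**Figure D4:**
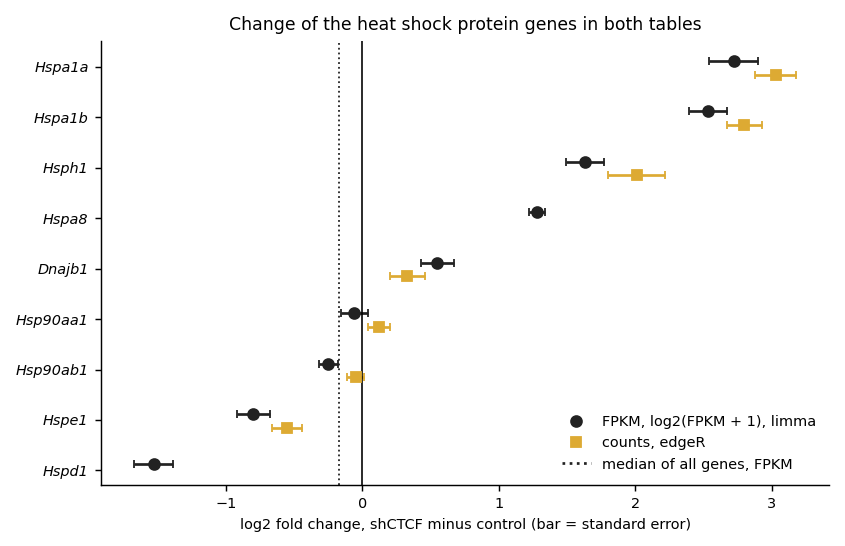
Log2 fold change (horizontal axis, shCTCF minus control) of the members in FPKM (circles, limma) and in counts (squares, edgeR), with standard errors as bars and the FPKM median of all genes, -0.17, as a dotted line. Changes run from 2.72 for Hspa1a to -1.53 for Hspd1, and both HSP90 genes lie near the line. Hspa8 and Hspd1 have no value from counts.

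Members differed in level among the 3 shCTCF samples, a spread whose source was not tested. Replicate 1 had the lowest FPKM of the 3 in 9 of 9 tested members, against 41.1% of all genes, and replicate 3 the highest in 8 of 9, against 35.7%. The exception was Hsp90ab1, which was highest in replicate 2. For Hspa1a these samples ran from 145.3 to 237.3 FPKM, and the control samples from 24.1 to 32.4 FPKM. The range in shCTCF was wider in FPKM, but at a mean 6.89 times as high, and relative spreads were not compared. Hspd1 and Hspe1, which were lower in shCTCF, also had their lowest shCTCF value in replicate 1.

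The genes whose FPKM across the 6 samples most resembled Hspa1a plus Hspa1b were named as a description, since with groups this far apart many genes follow the same split. Of 7889 genes that averaged 5 FPKM or more, 115 had a Pearson correlation above 0.99 and 1286 above 0.95. The 5 highest were Nfkbiz (0.9994), Bag3 (0.9993), Txnl4a (0.9985), Rab33b (0.9984) and Rhof (0.9982). Among the members, Hsph1 was in place 13 and Hspa8 in place 18, both at 0.996, whereas Dnajb1 was in place 1485 at 0.932.

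Beyond the 10 genes, 106 other chaperone genes in 9 lists were read in the same fits. Of these 94 were tested in FPKM, of which 22 rose and 52 fell with a median log2 fold change of -0.31 beside -0.17 for all genes. Scaling to the same median gave 26 higher and 37 lower, and over all genes it changed 2876 higher and 4405 lower to 3482 and 3606. In the counts 67 were tested, of which 19 rose and 27 fell, and scaling by library size gave 15 and 33, while over all genes it changed 2553 higher and 2521 lower to 2167 and 3059. Directions given below for single genes held under both FPKM scalings, and calls lost with the same median are named.

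The lists are described by their counts, which are to be read beside 28.8% higher and 44.2% lower over all genes in FPKM. Among 17 tested J-domain genes, partners of HSP70, 5 rose and 9 fell, near those shares, and in the counts 2 of 13 rose and 4 fell. Dnaja1, a type I J-domain co-chaperone of HSPA8, went from 52.6 ± 4.63 to 119.5 ± 11.9 FPKM (log2 fold change 1.17). Its count value of 0.57 did not pass (edgeR adjusted p = 0.222) and rested on 6 to 17 counts per sample. Dnajb4 went from 7.32 ± 1.47 to 17.6 ± 2.87 FPKM (1.17). Dnajc2, a ribosome-bound J-domain protein, fell from 205.9 ± 5.88 to 81.8 ± 5.03 FPKM (-1.32), and Dnajc7 from 72.5 ± 0.786 to 34.5 ± 1.64 FPKM (-1.05). Of 9 exchange and handover factors 2 rose and 6 fell. Bag3, the exchange factor that links HSP70 to autophagy, was at 15.5, 16.7 and 14.9 FPKM in control and 36.4, 43.2 and 46.4 FPKM in shCTCF (log2 fold change 1.36, SE 0.10, limma adjusted p = 1.1e-05; 1.63 in counts). Bag1 rose from 115.2 ± 1.81 to 218.1 ± 6.99 FPKM (0.91), while Bag6 fell from 73.0 ± 8.69 to 37.4 ± 0.753 FPKM (-0.94) and Bag5 from 19.6 ± 2.84 to 11.7 ± 0.702 FPKM (-0.69). Bag6 had only 5 to 13 counts per sample and did not pass in the counts (-0.10, edgeR adjusted p = 0.854).

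Of the 6 other HSP70 and HSP110 genes tested, 2 rose and 3 fell, and with the same median 2 rose and 0 fell. Hspa2, the testis-enriched HSP70, went from 3.03 ± 0.678 to 6.79 ± 0.619 FPKM (0.96). The HSP110 relatives of Hsph1 were lower, unlike Hsph1. Hspa4 fell from 95.5 ± 8.78 to 78.0 ± 0.938 FPKM (-0.28) and Hspa4l from 24.2 ± 4.67 to 17.7 ± 0.898 FPKM (-0.41), and both calls were lost with scaling to the same median (-0.10 and -0.24, adjusted p = 0.248 and 0.143).

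Among 18 HSP90 co-chaperones 5 rose and 9 fell. The FKBP immunophilins moved in opposite directions, with Fkbp5 rising from 54.7 ± 4.39 to 125.3 ± 2.14 FPKM (1.18, and 1.40 in counts) and Fkbp4 falling from 124.6 ± 3.99 to 31.4 ± 0.925 FPKM (-1.96, and -1.78 in counts). Fkbp4 thus had the higher level of the pair in control and Fkbp5 in shCTCF. Ppid, the cyclophilin of HSP90 complexes, fell from 60.3 ± 13.6 to 17.2 ± 1.42 FPKM (-1.73). Ahsa2, a relative of the HSP90 ATPase activator AHA1, was at 2.74 ± 4.74 FPKM in control and 9.41 ± 1.11 FPKM in shCTCF (2.31, limma adjusted p = 0.0288), with a control SD larger than the control mean. Its control samples were at 0, 8.21 and 0 FPKM and its shCTCF samples at 8.47, 9.12 and 10.6 FPKM. The change thus rested on the control samples at 0, and the gene had 0 counts in every sample. Of 9 small heat shock protein genes 2 were tested, and Hspb6 fell from 6.64 ± 0.525 to 2.99 ± 0.177 FPKM (-0.94).

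The cytosolic chaperonin CCT, the ring that folds actin and tubulin, and its helper prefoldin had 0 of 14 genes higher and 11 lower, with a median of -0.63, and scaling to the same median gave 2 higher and 10 lower. All 8 ring subunits fell under both scalings, between -1.42 and -0.52 as deposited, a split of the list made after the values were seen. Cct2 fell from 364.9 ± 7.35 to 136.2 ± 1.37 FPKM (-1.42) and Cct6a from 230.7 ± 17.9 to 133.0 ± 2.34 FPKM (-0.79). In the counts Cct2 went against this with 1.70 (edgeR adjusted p = 0.00231), but this rested on 2 to 9 counts in control and 16 to 21 in shCTCF. The other 6 ring subunits tested fell.

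Of 11 other mitochondrial chaperones and proteases, 7 fell and 1 rose, beside 44.2% lower over all genes, and the median was -1.02. With the same median 6 fell and 2 rose, and in the counts 3 of 7 fell and 2 rose. Hscb, a J-domain protein of iron-sulfur cluster assembly, fell from 30.8 ± 5.26 to 6.83 ± 1.13 FPKM (-2.02) and the protease gene Lonp1 from 128.6 ± 15.2 to 39.2 ± 2.57 FPKM (-1.68, and -1.44 in counts). Grpel1, the exchange factor of mitochondrial HSP70, rose from 24.1 ± 1.64 to 33.3 ± 0.762 FPKM (0.45). Named after its values were seen, Hspa9, the mitochondrial HSP70 itself, fell from 556.0 ± 12.6 to 273.3 ± 9.54 FPKM (-1.02).

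Of 14 chaperones of the endoplasmic reticulum 6 rose and 5 fell, and with the same median 6 rose and 1 fell. Dnajb9 rose from 16.4 ± 4.96 to 92.9 ± 13.4 FPKM (2.47) and the disulfide isomerase gene Pdia4 from 387.2 ± 21.4 to 1329 ± 70.4 FPKM (1.78). Hyou1, the HSP110 of this compartment, fell from 170.0 ± 14.1 to 99.9 ± 4.56 FPKM (-0.76), and Dnajc10 from 17.3 ± 2.56 to 12.3 ± 1.53 FPKM (-0.46), a call lost with the same median (-0.29, adjusted p = 0.0809). Among the heat shock factors and their regulators, Hsf1 was lower in shCTCF cells, where the members Hspa1a, Hspa1b and Hspa8 were higher. It was at 24.4 ± 1.89 FPKM in control and 9.80 ± 0.600 FPKM in shCTCF (-1.23, SE 0.09, limma adjusted p = 8.3e-06). Hsbp1, whose protein binds HSF1, rose from 65.9 ± 3.16 to 89.4 ± 3.18 FPKM (0.44), Hsf2, named after its values were seen, was at 2.25 ± 0.202 and 2.61 ± 0.269 FPKM and did not pass the test (limma adjusted p = 0.272), and Hsf1 was not tested in the counts.

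**Figure D5:**
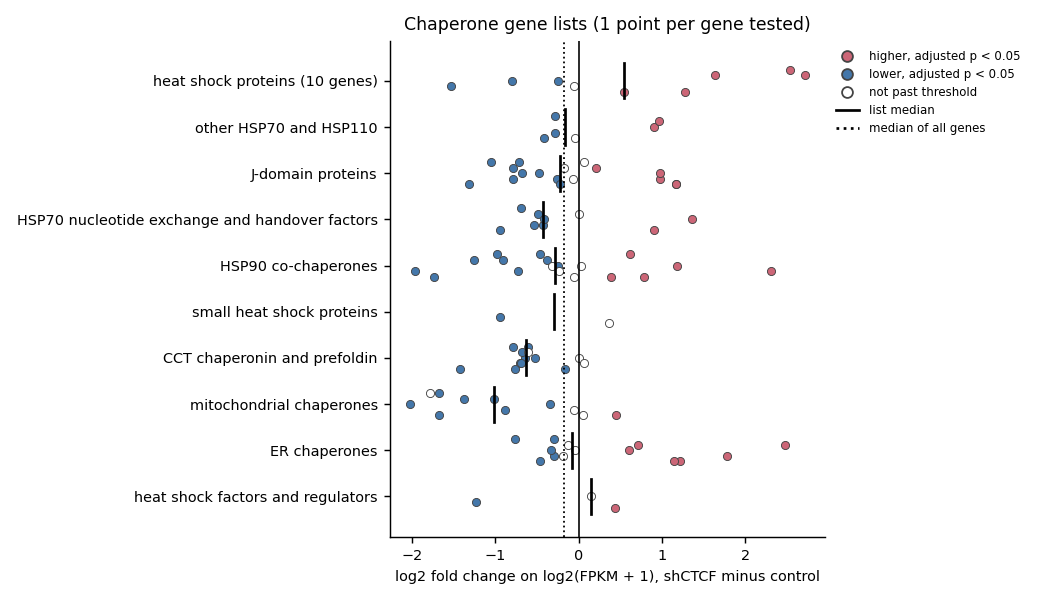
Log2 fold change of FPKM plus 1 (horizontal axis, shCTCF minus control) of each tested gene of the 10 heat shock proteins and the 9 other lists, filled where the limma adjusted p was under 0.05, with list medians as bars and the median of all genes as a dotted line. The CCT and mitochondrial lists have medians of -0.63 and -1.02, and the 4 highest values of the heat shock protein row, 1.28 to 2.72, belong to Hspa8, Hsph1, Hspa1b and Hspa1a.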

How the data were processed

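The study made KAPA stranded mRNA libraries, aligned them to mm9 with HISAT2 and gave 2 tables over RefSeq transcripts. The authors computed FPKM with Cufflinks 2.2.1, and the deposited counts are fragments per transcript from featureCounts 1.6.2, which did not use strand and left fragments on overlapping transcripts unassigned. Versions come from the submitters' processing notes. All value columns matched a sample (0 did not). Transcripts were given symbols (41685 of 41876 FPKM rows and 41186 of 41388 count rows, the rest holding at most 0.425% of FPKM and 0.603% of counts) and summed per symbol, and 1 FPKM row that repeated the column titles was dropped.

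Members and lists were chosen with earlier results of these data known. FPKM were tested as log2(FPKM + 1) with limma 3.58.1 (trend) over the 9976 genes that averaged 1 FPKM or more. Counts were tested with edgeR 4.0.16 (TMM, quasi-likelihood, filterByExpr) over 7341 genes, in R 4.3.3. Fits used the 6 samples only, with Benjamini-Hochberg adjustment over all genes and a threshold of 0.05. Both fits were also run on simulated data in which a far smaller share of genes changed than was called here, so those runs do not test the scaling. DESeq2 1.42.0, other scalings, filters, pseudocounts and leaving out each sample were alternatives. Besides the 10 members and Ctcf, the genes named were the 2 highest and 2 lowest changes in each list among those past the threshold with groups that do not overlap and at least 5 FPKM in the higher group, and the 5 genes most like Hspa1a plus Hspa1b. Total counts of 1686052 to 7044272 mean that 3 counts equal 0.426 to 1.78 CPM (counts scaled to library size), which covers counting error only.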

Additional observations from a re-analysis of the deposited data

How the results depend on the processing

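The numbers of members and of other chaperones called stayed within 1.5 times their value under all 50 alternatives. Leaving out 1 sample at a time gave 7 to 8 members and 64 to 79 other chaperones in FPKM, and 4 to 5 and 37 to 50 in counts. Hspa1a, Hspa1b, Hsph1 and Hspe1 kept direction and call under every alternative in both tables, and Hspa8 and Hspd1 under every alternative in FPKM. The log2 fold changes in FPKM were 2.56 to 2.91 for Hspa1a, 2.38 to 2.71 for Hspa1b and 1.24 to 1.46 for Hspa8. They were 1.49 to 1.81 for Hsph1, -0.91 to -0.61 for Hspe1 and -1.66 to -1.35 for Hspd1. In counts with no filter 10 members were tested and 6 called. Hspa8 and Hspd1, with at most 7 and 11 counts in a sample, were not among them. Dnajb1 in FPKM ran from 0.45 to 0.73. Of 215 alternatives for single members, 200 kept direction and call, 8 lost the call, 2 gained it and 5 changed direction. Leaving out 1 sample gave -0.15 to 0.03 for Hsp90aa1 in FPKM and -0.09 to 0.02 for Hsp90ab1 in counts. The changes of direction were the downstream Dnajb1 transcript alone (-1.33, which by construction leaves out the rest of the gene), Hsp90aa1 with samples scaled to the same median (0.12), without shCTCF replicate 1 (0.03) and in counts with library size only (-0.05), and Hsp90ab1 in counts without control replicate 2 (0.02). The calls gained were Hsp90ab1 in counts with library size only (-0.23, adjusted p = 0.0068) and Hsp90aa1 in counts with no filter (0.14, adjusted p = 0.0467). The cause was not tested. Samples with the same replicate number did not deviate together (correlations of -0.041 to 0.039 in FPKM and -0.015 to 0.029 in counts), and with the replicate number as a block 8 members were called in FPKM, 5 in counts, and 75 and 45 other chaperones, with no member's call changed. The count table limits Hspa8, Hspd1, Hsph1 and Dnajb1, whose transcripts overlap. Among the other chaperones named, Cct2, Dnaja1 and Bag6 were tested on at most 21, 17 and 13 counts in a sample. Hspa2, Dnajb4, Bag1, Bag5, Ahsa2, Hspb6, Hscb and Hsf1 had too few counts to be tested there. Their changes rest on FPKM only.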
